A study of Macaca mulatta with 6 samples.

Results

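The genes described here carry cytokine signals through JAK2 and the STAT factors and include the SOCS family inhibitors that switch those signals off. They were taken as a fixed list of 10 genes: JAK2, STAT5A, STAT5B, STAT3, CISH, SOCS1, SOCS2, SOCS3, PIM1 and PIM2. Of the 32386 rows of the deposited count table, 8 were matched to a member, and PIM1 and PIM2, which encode STAT5-induced survival kinases, were matched to no row and were not analysed here. RNA was sequenced from 6 single granulocyte-macrophage colonies of the rhesus macaque. The 3 colonies labelled UA carried a predicted loss-of-function mutation on one TET2 allele (TET2+/-), and the 3 labelled WT were wild type for TET2. Each colony grew from a single bone marrow CD34+ cell for 14 days in the semi-solid medium MethoCult H4435 Enriched, and its genotype had been read from its DNA. Both groups came from marrow taken 15 months after autologous transplantation of mobilized CD34+ cells treated with CRISPR/Cas9. A wild-type genotype does not show whether the cell behind a WT colony had itself been through the editing. How many animals gave the colonies is not stated in the labels, so the spread behind each p-value is that of these libraries alone and may include technical spread.

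JAK2 is a tyrosine kinase bound to the inner part of many cytokine receptors, among them those for GM-CSF, interleukin-3, interleukin-5 and erythropoietin. When a cytokine joins the receptor chains, JAK2 phosphorylates STAT5A and STAT5B, which move to the nucleus and switch on genes such as CISH, SOCS2, PIM1 and PIM2. CISH and the SOCS proteins then bind the receptor or the kinase and damp the signal, so their transcript is often read as a trace of recent signalling. STAT3 is the main factor downstream of the interleukin-6 family and of G-CSF, and SOCS3 is the inhibitor of those receptors. MethoCult H4435 supplies growth factors of this kind, including GM-CSF, interleukin-3 and G-CSF.

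Total counts were 17684447, 9861817 and 6334264 in UA replicates 1 to 3, and 25485143, 10574104 and 12005869 in WT replicates 1 to 3. Levels below are CPM, counts scaled to library size with TMM factors and not to gene length, and they compare 1 gene between libraries. Sums over genes and ratios between genes are descriptions of counts, and do not compare the transcript amounts of different genes. The UA libraries differed little from one another: the median chi-square per gene between 2 of them was 4.05 to 4.94 times that of counting noise alone, against 10.9 to 40.2 times between 2 WT libraries, where replicate 1 stood farthest apart. Results are therefore also given with the 3 UA libraries summed to 1 sample and without WT replicate 1. TET2 itself was higher in UA, at 237.8, 224.6 and 229.5 CPM, against 79.3, 92.8 and 109.1 CPM in WT (log2 fold change 1.30, adjusted p = 3.93e-05 by edgeR). As the counts do not separate the alleles, its level does not check the labels. The groups also differed widely in lineage markers, within most lists in both directions. By edgeR at an adjusted p under 0.05, 34.6% of all genes tested were higher in UA and 31.4% lower. Summed over 11 neutrophil granule markers the level was 24412 to 25258 CPM in UA and 1329 to 1488 in WT, with 7 higher and 2 lower in UA. MPO made up most of this sum, with a mean of 16740 CPM in UA and 810.4 in WT. MMP9 (15.4 CPM in UA, against 127.6 in WT) and LCN2 (0.676 against 7.83) were lower, and CAMP and MMP8 did not pass. Over 9 monocyte and macrophage markers the sum was 8265 to 8425 CPM in UA and 1743 to 2147 in WT, with 5 higher and 1 lower. That sum was mostly LYZ, lysozyme, with a mean of 7600 CPM in UA and 464 in WT, while CD14, the monocyte surface marker, was lower in UA, at a mean of 21.7 CPM against 1147 CPM in WT (log2 fold change -5.73, adjusted p = 2.72e-08 by edgeR). CSF1R, MRC1 and MARCO did not pass. Over 11 erythroid markers the sum was 643 to 689 CPM in UA and 394 to 396 in WT, with 5 of 8 tested higher and 3 lower. TFRC, the transferrin receptor, made up most of it in UA (568.9 CPM, against 92.4 in WT), while RHAG, a red cell membrane protein, had 12.9 CPM in UA and 213.9 in WT. Over 7 eosinophil, mast cell and basophil markers the sums were 1501 to 1617 CPM in UA and 197 to 224 in WT, with 5 higher and 1 lower. Over 11 megakaryocyte markers they were 862 to 879 CPM in UA and 434 to 481 in WT, with 6 higher and 1 lower. Over 12 endothelial and stromal markers they were 1269 to 1301 CPM in UA and 156 to 166 in WT, with 11 higher and 1 lower. Over 11 dendritic cell markers they were 178 to 184 CPM in UA and 388 to 436 in WT, with 2 of 9 tested higher and 5 lower. Over 11 lymphoid markers they were 335 to 374 CPM in UA and 268 to 318 in WT, with 5 of 8 tested higher and 3 lower. No marker with a row was at 0 in all 6 libraries, and IL5RA and CD3E were at 0 in every WT library. The part of these markers in the results below was not tested, and in such bulk RNA fewer cells of a type and less RNA per cell cannot be told apart.

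The kinase and both STAT5 genes were higher in UA colonies, while STAT3 and the inhibitors CISH and SOCS1 were lower. JAK2 had 5.43 times and STAT5B 3.69 times the WT mean, and STAT5A 1.45 times. CISH had 0.693 times, STAT3 0.660 times and SOCS1 0.412 times the WT mean. SOCS2 and SOCS3 did not pass the test. By edgeR's quasi-likelihood test at an adjusted p under 0.05, 3 of the 8 members with a row rose and 3 fell. Among all 13768 genes tested, 66.0% passed, 34.6% as higher and 31.4% as lower, so 6 called of 8 is close to the share over all genes. The median size of the log2 fold change was 0.57 over the 8 members and 1.05 over all genes tested, and the signed medians were -0.11 and 0.12.

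JAK2 showed the largest difference of the 8 members. It had 117.1, 120.8 and 110.6 CPM in UA replicates 1 to 3, and 10.3, 25.9 and 27.9 CPM in WT replicates 1 to 3. The groups did not overlap, and WT replicate 1 lay at 48.3% of the WT mean. Underlying counts were 2160, 1256 and 749 in UA against 226, 271 and 331 in WT. The log2 fold change was 2.46 ± 0.32 (SE, adjusted p = 5.77e-05 by edgeR), 2.12 ± 0.12 without WT replicate 1 (SE, adjusted p = 4.96e-11 by edgeR) and 2.48 ± 0.42 with the UA libraries summed (SE, adjusted p = 0.000102 by edgeR). The authors' deposited table puts JAK2 on chromosome 15 (79366323 to 79520054). That table gives no genome build, and Mmul_8.0.1 is the build in the submitters' processing notes.

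STAT5B and STAT5A, the paralogous factors that JAK2 activates, both rose, and by different amounts. STAT5B had 42.1, 48.7 and 53.6 CPM in UA, against 9.41, 14.5 and 15.2 CPM in WT, with no overlap of the groups. Its log2 fold change was 1.89 ± 0.24 (SE, adjusted p = 4.65e-05 by edgeR), and 1.85 ± 0.42 with the UA libraries summed (SE, adjusted p = 0.00147 by edgeR). STAT5A had 152.3, 149.5 and 163.5 CPM in UA, against 86.7, 110.3 and 124.8 CPM in WT, again without overlap. Its log2 fold change was 0.53 ± 0.17 (SE, adjusted p = 0.0156 by edgeR). Summing the UA libraries ended the call (0.54, edgeR adjusted p = 0.245), as did leaving out UA replicate 1 (0.55, 0.0504) or UA replicate 3 (0.49, 0.0712). Within a library the ratio of STAT5B to STAT5A counts was 0.276, 0.326 and 0.328 in UA, against 0.109, 0.132 and 0.122 in WT, a ratio chosen after the values were seen and given with no test. The STAT5 genes are near-identical neighbours, so reads that the counting could have split between them make both levels uncertain. The library kit does not mark strand, so reads of genes that overlap on opposite strands cannot be told apart.

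STAT3 moved the other way from the STAT5 genes. It had 143.3, 140.1 and 142.8 CPM in UA, against 173.1, 223.6 and 249.2 CPM in WT. All UA libraries lay below all WT libraries, and the WT values spread far more widely than those of UA. The log2 fold change was -0.60 ± 0.16 (SE, adjusted p = 0.00751 by edgeR) and -0.73 ± 0.08 without WT replicate 1 (SE, adjusted p = 5.36e-07 by edgeR). With library size in place of TMM it was -0.45 (edgeR adjusted p = 0.0556), and with the UA libraries summed -0.58 (edgeR adjusted p = 0.231), so neither gave a call. In the authors' deposited table STAT5A (chromosome 16 from 48138043 to 48163166) and STAT3 (from 48163391 to 48253145) lie side by side, and these neighbours changed in opposite directions.

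**Figure D1:**
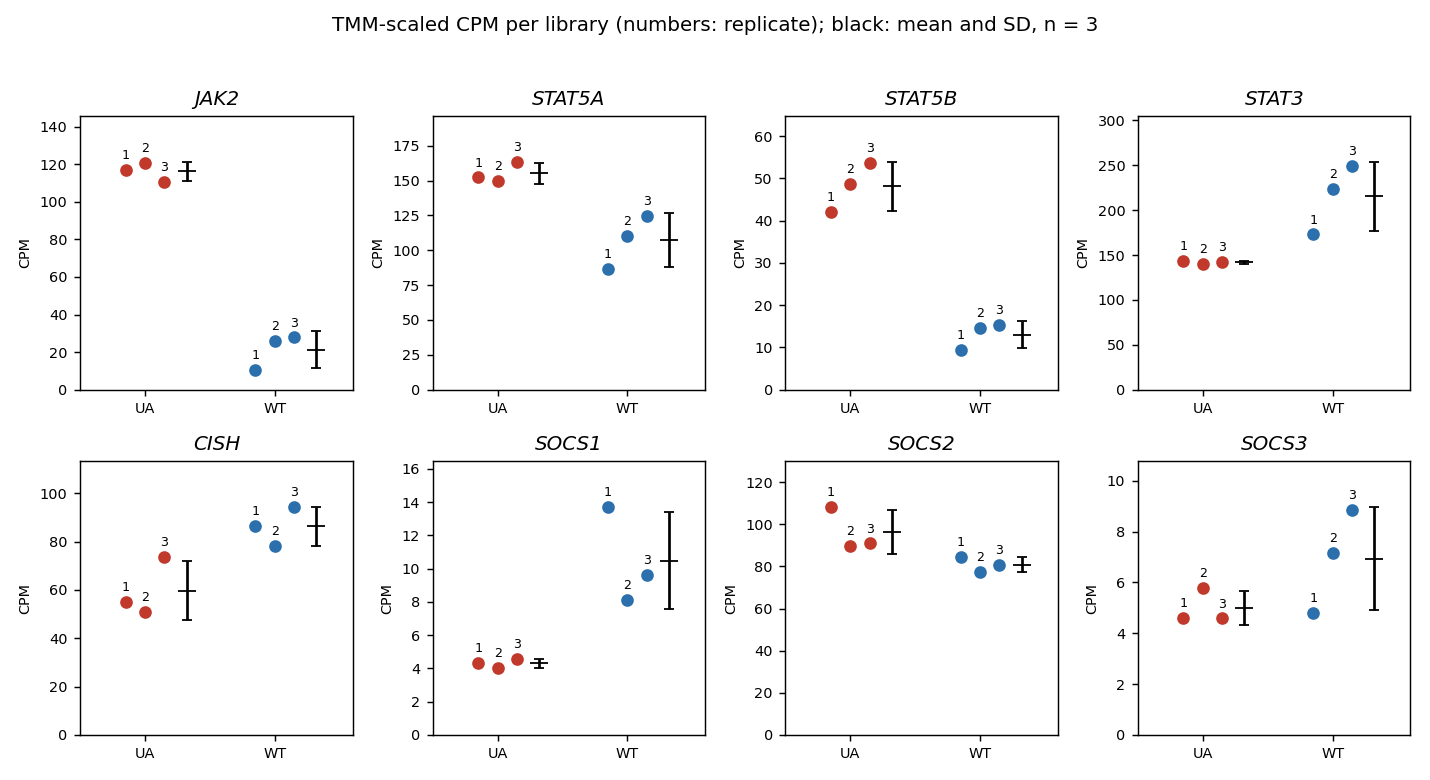
TMM-scaled CPM (vertical axis, linear from 0) of the 8 members in 3 UA and 3 WT libraries, numbered by replicate, with the mean and SD of each group in black. JAK2 sits between 110.6 and 120.8 CPM in UA and between 10.3 and 27.9 in WT, and SOCS3 alone has groups that overlap.

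CISH, a direct target of STAT5 whose protein blocks STAT5 docking sites on cytokine receptors, was lower in UA. It had 55.0, 50.8 and 73.5 CPM in UA, against 86.5, 78.1 and 94.3 CPM in WT. The groups did not overlap, but UA replicate 3 came close to WT replicate 2. On the log2 scale the difference was -0.53 ± 0.19 (SE, adjusted p = 0.0254 by edgeR), and no other member called had an adjusted p this near the threshold. It was no longer called without UA replicate 1 (-0.47, edgeR adjusted p = 0.111), UA replicate 2 (-0.43, 0.128) or WT replicate 3 (-0.47, 0.0738), nor with library size alone (-0.37, 0.12), upper-quartile factors (-0.44, 0.06) or the UA libraries summed (-0.57, 0.246). The row was identified through the RefSeq protein accession that the authors' deposited table gives for it, on chromosome 2 from 91703040 to 91707768.

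SOCS1, an inhibitor that binds the JAK kinases themselves and restrains interferon and interleukin-2 family signals, fell further. It had 4.34, 4.04 and 4.58 CPM in UA, against 13.7, 8.13 and 9.60 CPM in WT. The groups did not overlap, and WT replicate 1 was the highest of all libraries for this gene, whereas for JAK2 it was the lowest. Counts were low, at 80, 42 and 31 in UA and 300, 85 and 114 in WT. The log2 fold change was -1.29 ± 0.31 (SE, adjusted p = 0.00369 by edgeR) and -1.03 ± 0.34 without WT replicate 1 (SE, adjusted p = 0.0128 by edgeR). With the UA libraries summed it kept its size at -1.27 but was not called (SE 0.59, edgeR adjusted p = 0.0983).

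SOCS2, which restrains growth hormone and STAT5 signals, and SOCS3, the inhibitor of the G-CSF and interleukin-6 receptors, did not pass. SOCS2 had 108.3, 89.7 and 91.0 CPM in UA, against 84.5, 77.5 and 80.6 CPM in WT. The UA libraries all lay above the WT ones by a small margin, with a log2 fold change of 0.25 ± 0.16 (SE, adjusted p = 0.173 by edgeR). Scaling by library size alone called it higher (0.42, edgeR adjusted p = 0.0334), as did leaving out WT replicate 1 (0.30, 0.0281). SOCS3 had 4.61, 5.77 and 4.58 CPM in UA, against 4.80, 7.17 and 8.84 CPM in WT, so WT replicate 1 lay among the UA libraries. Its log2 fold change was -0.47 ± 0.34 (SE, adjusted p = 0.251 by edgeR). Its counts were 85, 60 and 31 in UA and 105, 75 and 105 in WT. Groups that do not overlap were found for 7 of the 8 members and for 73.2% of all genes tested. UA lay above WT for 4 of the members (39.2% of all genes) and below it for 3 (34.0%). Without WT replicate 1, 7 of the 8 members were called, against 69.2% of the genes tested in that fit, and with the UA libraries summed 2 were called, against 33.4%.

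**Figure D2:**
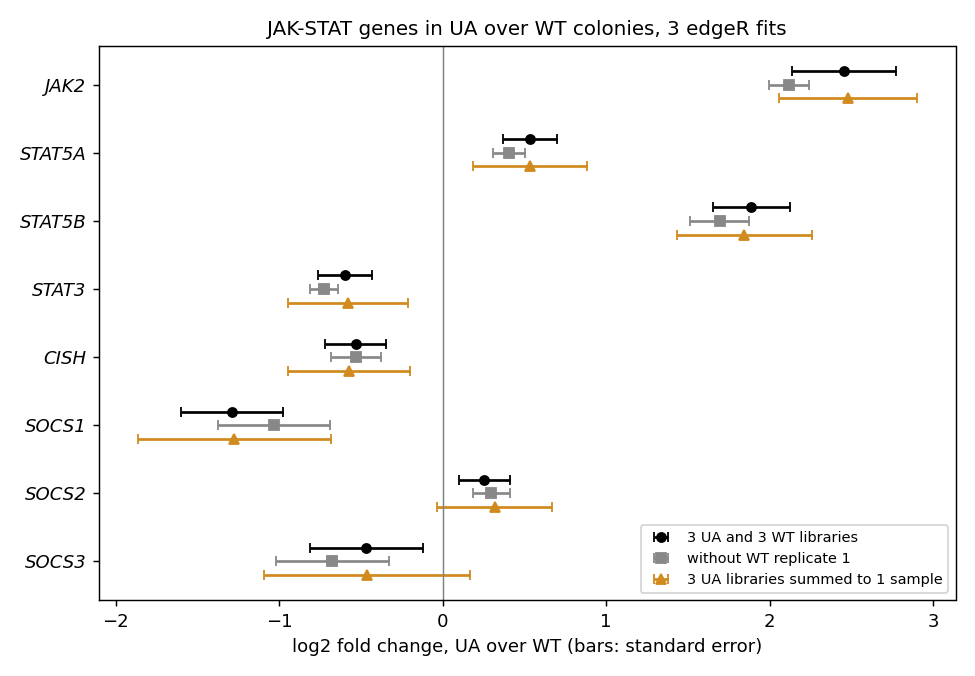
Log2 fold changes of UA over WT (horizontal axis, bars are standard errors) for the 8 members in 3 edgeR fits: all 6 libraries, without WT replicate 1, and with the 3 UA libraries summed to 1 sample. JAK2 and STAT5B stay above 1.6 in all 3 fits, and none of the other 6 members was called in the summed fit.

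Ratios of counts within a library set an inhibitor against a kinase or factor of its pathway. CISH counts were 0.361, 0.340 and 0.450 times the STAT5A counts in UA, against 0.998, 0.708 and 0.756 times in WT. SOCS1 counts were 0.0370, 0.0334 and 0.0414 times the JAK2 counts in UA, against 1.33, 0.314 and 0.344 times in WT. Neither pair of ranges overlapped, with WT replicate 1 highest in each. The lack of overlap had to follow from the levels above and adds no evidence. CISH and SOCS1 were each lower in every UA library than in any WT library, and STAT5A and JAK2 higher. SOCS2 counts were 0.711, 0.600 and 0.556 times the STAT5A counts in UA, against 0.975, 0.702 and 0.646 times in WT, and these ranges overlapped. SOCS3 counts were 0.0321, 0.0412 and 0.0321 times the STAT3 counts in UA, against 0.0277, 0.0321 and 0.0355 times in WT, which also overlapped. The ratios were formed after the values were seen and are given as descriptions.

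Of the other JAK kinases and STAT factors, 3 of 7 rose and none fell in the fit of all libraries. Of all genes tested, 34.6% rose and 31.4% fell in that fit. STAT2, a factor of the type I interferon response, had 50.8, 51.9 and 56.3 CPM in UA, against 6.17, 8.03 and 12.5 CPM in WT (log2 fold change 2.59 ± 0.27 SE, adjusted p = 1.27e-05 by edgeR). TYK2 and JAK1, kinases of the interferon and interleukin-6 families of receptors, had log2 fold changes of 0.75 and 0.55 (edgeR adjusted p = 0.00597 and 0.00929). Neither was called with the UA libraries summed (0.73 and 0.56, edgeR adjusted p = 0.135 and 0.209). STAT4, STAT6 and JAK3 were among those that did not pass. STAT4 was called lower without WT replicate 1, at -1.58 (edgeR adjusted p = 0.0277), and STAT6 higher, at 0.24 (edgeR adjusted p = 0.0297), at 0.53 without WT replicate 3 (0.0242) and at 0.53 with library size alone (0.0371). JAK3, the kinase bound to the common gamma chain IL2RG, had 24.9, 26.5 and 22.0 CPM in UA and 7.54, 28.2 and 36.5 CPM in WT, with WT replicate 1 below every other library.

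The SOCS genes outside the members that had a row went up, while CISH and SOCS1 fell and SOCS2 and SOCS3 did not pass. Of the 5 genes on the list of other SOCS genes and PIM3, SOCS4, SOCS5 and SOCS7 had a row. All 3 rose, where 34.6% of all genes did, and SOCS6 and PIM3 were not analysed here. SOCS4 had 30.6, 24.6 and 31.9 CPM in UA, against 12.2, 15.6 and 12.8 CPM in WT (log2 fold change 1.10 ± 0.22 SE, adjusted p = 0.00102 by edgeR). SOCS5, an inhibitor of EGF receptor and interleukin-4 signals, had a log2 fold change of 0.94 ± 0.30 (SE, adjusted p = 0.0179 by edgeR). The call ended on summing the UA libraries (0.93, edgeR adjusted p = 0.126) and on leaving out UA replicate 2 (0.93, 0.0546) or UA replicate 3 (0.90, 0.0558). SOCS7 was low throughout, at 6.20 to 7.98 CPM in UA and 1.74 to 2.29 in WT (log2 fold change 1.93, adjusted p = 0.000803 by edgeR).

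Of 13 other inhibitors of the pathway, 3 rose, 4 fell and 6 did not pass, where 34.6% of all genes rose and 31.4% fell. CBL, a ubiquitin ligase that marks activated receptors for breakdown, had 69.6, 61.0 and 71.3 CPM in UA, against 4.07, 7.94 and 5.56 CPM in WT. Its log2 fold change was 3.55 ± 0.26 (SE, adjusted p = 1.60e-06 by edgeR), and that of its relative CBLB was 1.53 ± 0.17 (SE, adjusted p = 1.82e-05 by edgeR). SH2B3, the adaptor LNK that holds JAK2 in check in blood cells, had 99.6, 105.3 and 109.7 CPM in UA, against 30.2, 54.4 and 60.7 CPM in WT (log2 fold change 1.12 ± 0.24 SE, adjusted p = 0.00175 by edgeR). USP18, which blocks the type I interferon receptor, fell to 11.2, 14.4 and 12.3 CPM in UA, against 69.8, 76.5 and 64.2 CPM in WT (log2 fold change -2.48 ± 0.19 SE, adjusted p = 2.00e-06 by edgeR). CBL, CBLB, SH2B3 and USP18 were also called with the UA libraries summed. PTPN6, the phosphatase SHP-1, PIAS4, a STAT-binding SUMO ligase, and PTPRC, the phosphatase CD45, were the other 3 that fell (log2 fold changes of -0.90, -1.11 and -0.61), and none of these 3 was called in that fit (edgeR adjusted p = 0.0641, 0.0614 and 0.263). PTPRC also lost its call with each UA library left out in turn (edgeR adjusted p = 0.0514 to 0.073), without WT replicate 2 (0.0747) and without WT replicate 3 (0.0622), or with library size alone (0.0993).

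**Figure D3:**
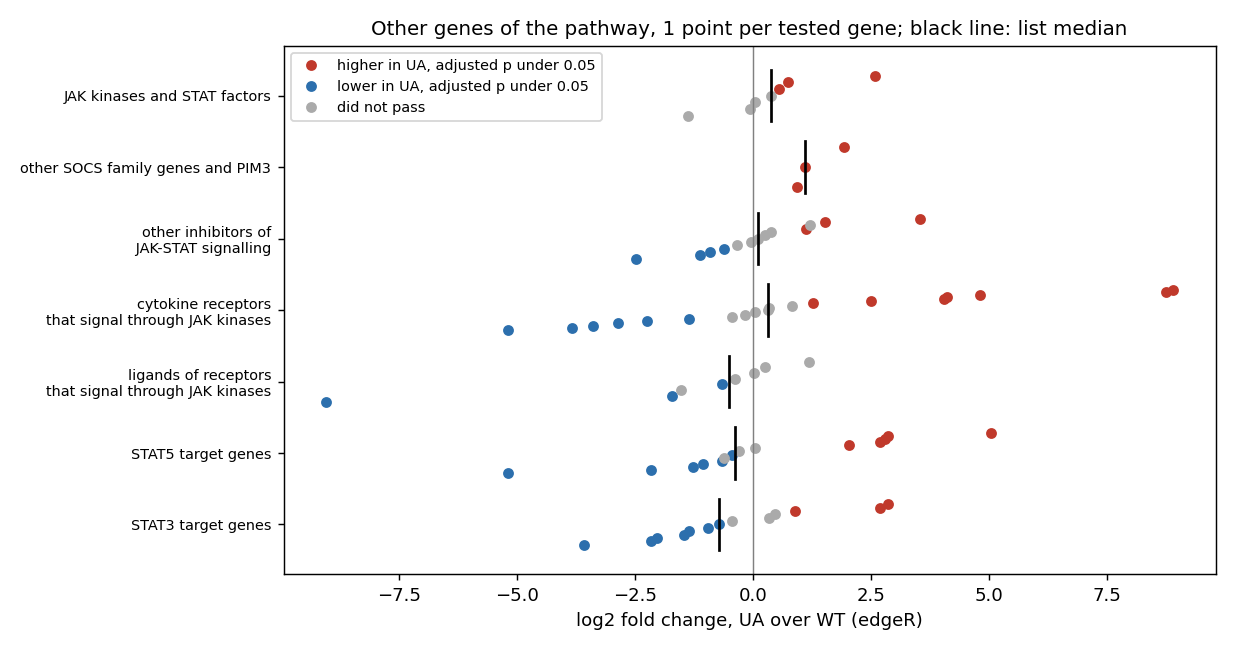
Log2 fold changes of UA over WT (horizontal axis) for every tested gene of 7 lists of the pathway, 1 point per gene, coloured by the edgeR call at an adjusted p under 0.05, with the list median as a black line. The lowest receptor is IL2RA at -5.19. The 2 receptors farthest right, IL5RA and LIFR, had 0 counts in WT, so their positions depend on the fit and are not measured folds.

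Of the receptors that feed these kinases, 7 of 19 were higher and 6 lower, close to the 34.6% and 31.4% over all genes. Among them CSF3R, the G-CSF receptor, rose to 187.7, 186.7 and 181.6 CPM in UA, against 6.72, 13.1 and 14.4 CPM in WT (log2 fold change 4.04 ± 0.27 SE, adjusted p = 9.17e-07 by edgeR). CSF3R, though a receptor, was also counted in the list of neutrophil granule markers above, whose sum was higher in UA. IL6ST, the shared signalling chain of the interleukin-6 family, had 138.6, 151.0 and 140.4 CPM in UA, against 10.5, 35.4 and 30.5 CPM in WT (log2 fold change 2.51, adjusted p = 0.000119 by edgeR), and was named after its values were seen. The interleukin-5 receptor chain IL5RA and the LIF receptor LIFR had 160 and 153 counts over the UA libraries and 0 in WT. Taking 3 counts for the whole WT group as the limit that 0 allows, they were at least 66.2-fold and 63.3-fold higher in UA. IL5RA, EPOR and IL7R also stand on the eosinophil, erythroid and lymphoid marker lists summed above.

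Chains of the common gamma family of receptors were lower instead. IL2RA, the high-affinity chain of the interleukin-2 receptor and itself a STAT5 target, had 1.25, 0.577 and 3.40 CPM in UA, against 49.8, 56.3 and 65.3 CPM in WT (log2 fold change -5.19 ± 0.44 SE, adjusted p = 3.44e-06 by edgeR). IL2RG, the common gamma chain, had 63.6, 63.9 and 57.0 CPM in UA, against 496.9, 414.1 and 427.8 CPM in WT (log2 fold change -2.86 ± 0.15 SE, adjusted p = 1.80e-07 by edgeR). IL2RB, IL7R and IL4R also fell, by log2 fold changes of -3.82, -2.23 and -1.36. IFNGR2, a chain of the interferon gamma receptor, had 29.8, 34.2 and 28.6 CPM in UA, against 361.7, 318.6 and 290.0 CPM in WT (log2 fold change -3.39 ± 0.17 SE, adjusted p = 1.12e-07 by edgeR). IFNGR1, another chain of that receptor, did not fall. It had 209.9, 203.7 and 188.1 CPM in UA, against 145.5, 176.2 and 162.9 CPM in WT. Its log2 fold change of 0.31 did not pass (edgeR adjusted p = 0.077), and 5 of 16 alternatives called it higher.

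CSF2RB, the beta chain through which GM-CSF, interleukin-3 and interleukin-5 reach JAK2, did not pass. It had 55.5, 64.5 and 70.1 CPM in UA and 43.8, 65.3 and 73.9 CPM in WT, overlapping ranges with a log2 fold change of 0.06 (edgeR adjusted p = 0.827), and is named here because it carries the signals of the medium. EPOR, the erythropoietin receptor, had a log2 fold change of 1.28 (edgeR adjusted p = 0.0381) that rose to 2.30 without WT replicate 1 (edgeR adjusted p = 2.1e-05). It was not called when any other single library was left out (edgeR adjusted p = 0.0648 to 0.112) or with the UA libraries summed (0.149). The receptor chains CSF2RA and IL3RA were not analysed here.

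**Figure D4:**
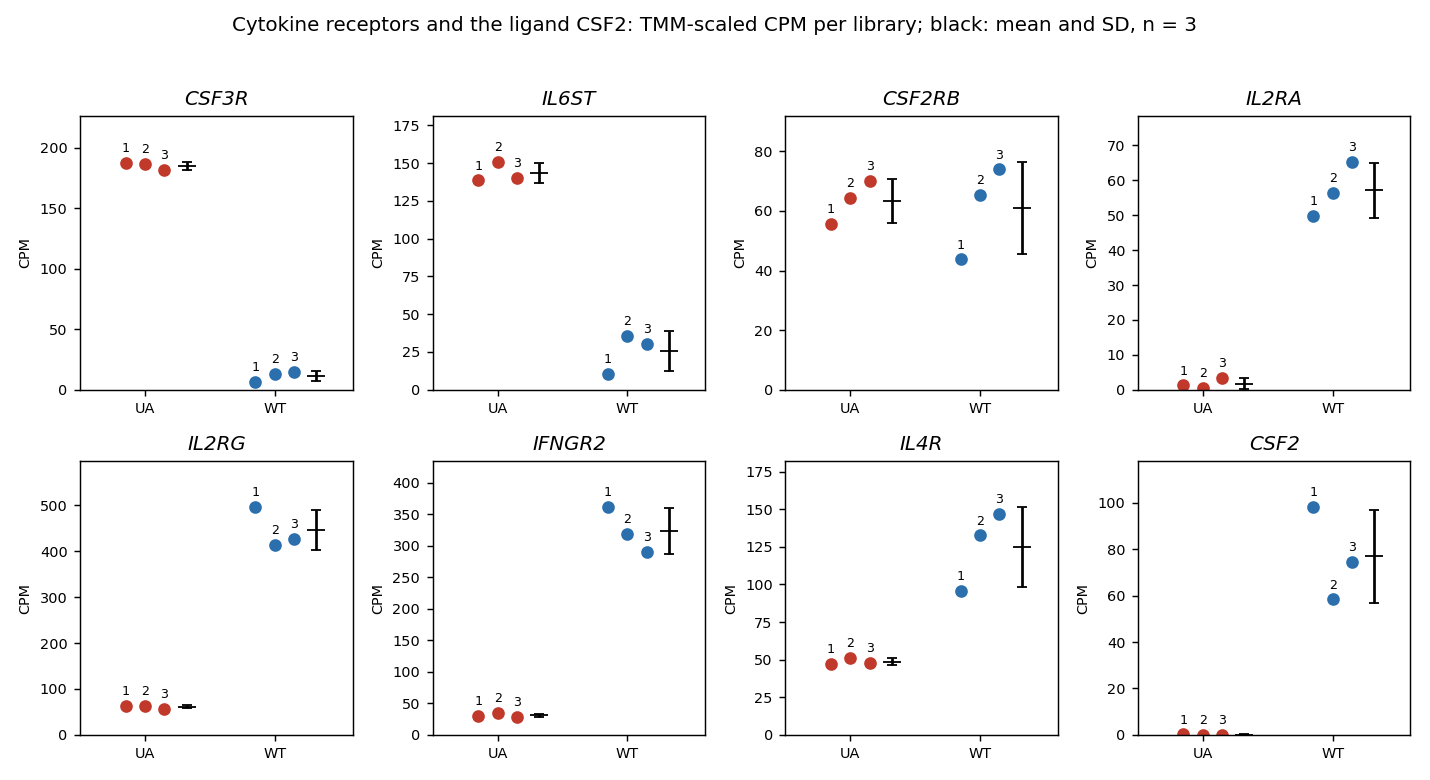
TMM-scaled CPM (vertical axis, linear from 0) of 7 cytokine receptor genes and of the ligand CSF2 in 3 UA and 3 WT libraries, numbered by replicate, with the mean and SD of each group in black. CSF3R and IL6ST stand higher in UA, the ranges of CSF2RB overlap, and IL2RA, IL2RG, IFNGR2, IL4R and CSF2 stand lower in UA.

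Ligands were sparse: 8 of 17 with a row were tested, 3 fell and none rose, where 31.4% of all genes fell and 34.6% rose. IL2, IL3, IL11, IL13 and EPO had 0 counts in all 6 libraries, where 3 counts would be 0.137 to 0.443 CPM. CSF2, which encodes GM-CSF, had 0.217, 0.0961 and 0 CPM in UA, against 98.3, 58.4 and 74.4 CPM in WT (log2 fold change -9.03 ± 0.43 SE, adjusted p = 1.06e-07 by edgeR). OSM, oncostatin M, a cytokine of the interleukin-6 family induced by STAT5, had 44.0, 41.2 and 42.7 CPM in UA, against 60.3, 69.6 and 70.0 CPM in WT (log2 fold change -0.64 ± 0.16 SE, adjusted p = 0.00491 by edgeR). It was not called with the UA libraries summed (-0.62, edgeR adjusted p = 0.225). IL6 had 2.17, 3.27 and 2.07 CPM in UA, against 13.7, 6.88 and 3.79 CPM in WT, with a log2 fold change of -1.71 (edgeR adjusted p = 0.0095) that was -1.08 without WT replicate 1 and then not called (edgeR adjusted p = 0.0588), nor was it with the UA libraries summed (0.0754).

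Genes known as STAT5 targets did not move in 1 direction, on a list that does not separate genes STAT5 induces from genes it represses. Of 14 tested, 5 rose and 6 fell, where 34.6% of all genes rose and 31.4% fell. Their median was -0.37 on the log2 scale, against 0.12 over all genes. MCL1, a survival protein of the BCL2 family, had 220.0, 222.5 and 202.3 CPM in UA, against 21.1, 39.4 and 39.2 CPM in WT (log2 fold change 2.70 ± 0.24 SE, adjusted p = 4.38e-06 by edgeR). BCL6, a transcriptional repressor that competes for STAT5 sites, and CCND1, cyclin D1, rose by log2 fold changes of 2.87 and 2.80. MYC fell to 80.7, 76.9 and 68.8 CPM in UA, against 320.2, 344.7 and 344.1 CPM in WT (log2 fold change -2.15 ± 0.15 SE, adjusted p = 8.93e-07 by edgeR). CCND2, cyclin D2, fell too, with a log2 fold change of -1.26 (edgeR adjusted p = 0.000184), and IL2RA as above. CCND3, cyclin D3, had 420.4, 439.2 and 429.4 CPM in UA and 428.3, 417.7 and 400.1 CPM in WT, with a log2 fold change of 0.05 that did not pass. CCND2 and CCND3 were named after their values were seen.

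Among 13 tested STAT3 targets, 7 fell and 3 rose, where 31.4% of all genes fell and 34.6% rose. Their median was -0.72 on the log2 scale, against 0.12 over all genes. BATF, an AP-1 family factor, had 7.59, 8.75 and 3.84 CPM in UA, against 104.2, 75.3 and 67.4 CPM in WT (log2 fold change -3.58 ± 0.30 SE, adjusted p = 3.24e-06 by edgeR). IRF1, a transcription factor that interferons also induce, rose to 386.8, 406.1 and 399.3 CPM in UA, against 38.8, 54.3 and 71.7 CPM in WT (log2 fold change 2.86 ± 0.22 SE, adjusted p = 1.84e-06 by edgeR). MCL1 and MYC stand on this list as well as on that of STAT5. With the UA libraries summed, 4 of the 13 were called lower and 2 higher.

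The genes whose profile over the 6 libraries lay nearest to that of JAK2 were MKNK2, CD2AP, RBM15, ANK1 and SMG1. Nearness was the Euclidean distance between log2 CPM profiles centred on each gene's mean, over 9409 genes with a symbol and a mean of at least 5 CPM. The distances were 0.134 to 0.208, and the log2 fold changes of these 5 genes were 2.38 to 2.57. For SOCS1, the member with the largest fall, the nearest were TXN2, TMEM60, RPS7, TGIF2 and BAG1, at distances of 0.118 to 0.152. These lists follow the group difference and the place of WT replicate 1 over the same 6 libraries.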

How the data were processed

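RNA of single colonies was amplified with the SMART-Seq V4 kit and made into Nextera XT libraries, per the labels' protocols. The submitters' processing notes name bcl2fastq and the build Mmul_8.0.1, and the sources used here name no aligner or counter. The authors deposited raw counts per gene. A second deposited table, of a differential expression test, holds per the file headers a normalized mean (a signal), log2 fold changes, their standard errors and statistics (scores) and p-values. Only its gene names, accessions and positions were used in the results, because its groups are not named. Its fold changes and means appear only under Other observations.

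Symbols came from row names (2529 rows), the deposited table (9226 IDs by symbol, 571 by RefSeq protein accession, 4 by gene description) and a table of gene names (6767 IDs), and 13289 IDs have none. For 214 symbols on several rows the row of highest total was used. SOCS2 was matched by its description. No genome or promoter sequence was used.

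The test was the quasi-likelihood test of edgeR 4.0.16 (R 4.3.3, robust=TRUE, TMM factors 0.86 to 1.07), fitted to the counts of all 6 libraries with no term but the group. The low-count filter filterByExpr (minimum count 10, minimum total 15) left 13768 genes, and the Benjamini-Hochberg adjustment ran over all of them. The standard error is the log2 fold change over the square root of F. CPM values are TMM-scaled. A count of 0 allows up to 3 counts, and such floors cover counting error only, since PCR copies are counted as reads. The fit was checked on simulated counts. Alternatives were 3 other scalings, 2 other filters, the DESeq2 1.42.0 Wald test, limma 3.58.1 voom, a replicate block, leaving out each library, summing the UA libraries and summing rows of a symbol.

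The members and lists were chosen with earlier results of these data known. The text names all members, up to 4 called genes of largest fold change per list with a mean of at least 5 CPM, the 5 genes nearest in profile to the member of largest rise and of largest fall, and TET2; where a gene outside this rule appears, it was chosen after its values were seen. Some genes of these lists are counted but not reported here by name.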

Additional observations from a re-analysis of the deposited data

How the results depend on the processing

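Of the 8 members, JAK2 and STAT5B kept their rise and their call in all 16 alternatives, and no member changed sign in any. SOCS1 was called in 15, STAT3 in 14, STAT5A in 13 and CISH in 10. With library size alone 1 member was called lower (SOCS1), and 4 higher. The median log2 fold change of all genes then was 0.28, against 0.12 with TMM. With the 3 UA libraries summed to 1 sample, edgeR called 0 members lower (1 at an unadjusted p under 0.05) and 2 higher, and 3014 of all genes higher and 2410 lower. The lone UA sample is there assumed to vary as the WT libraries do. Leaving out each library in turn gave 2 to 4 members higher and 2 to 3 lower, and 4133 to 5371 genes higher and 3764 to 4578 lower. Whether the replicate numbers pair the libraries was not settled. Same-numbered ones had correlations of 0.0129, 0.022 and 0.0132 between their deviations from the group means, and the others -0.0128 to -0.000345. Each library correlated best with its own number. With the replicate block 3 members were called higher and 3 lower, and 4765 genes higher and 4174 lower. The causes were not tested. SOCS1 and SOCS3 had the fewest counts of the 8 members, 31 to 300 per library.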

Other observations

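The authors' deposited table lists 7 of the 8 members with a row, and its values differ from the counts described here. It gives log2 fold changes of 3.95 for JAK2, 0.945 for STAT5A, 3.21 for CISH, 2.59 for SOCS1, 2.31 for SOCS2, 0.962 for STAT3 and -3.60 for SOCS3 in the authors' deposited table. JAK2, STAT5A, SOCS2 and SOCS3 have the sign of UA over WT in the counts, and CISH, SOCS1 and STAT3 have the opposite sign. Its mean of normalized counts for SOCS3 is 6.13 in the authors' deposited table, while the count table holds 31 to 105 counts per library. Over 7827 genes that the authors' deposited table lists and that had a mean of at least 5 CPM, 39.3% had the sign of UA over WT in the counts. The sources used here do not say which libraries that table compares.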
